A study of Homo sapiens with 29 samples.

Results

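Whether knockdown of DAXX changes where lysine crotonylation lies on chromatin in cells given crotonate was examined in HCT116, a human colorectal carcinoma line. The comparison sets 2 chromatin immunoprecipitation (ChIP) libraries from cells with 35 nM DAXX siRNA and 10 mM crotonate against 2 from cells with 25 nM non-targeting siRNA and 10 mM crotonate. Both groups were immunoprecipitated with an antibody against crotonylated lysine (anti-Kcr). These are 4 of the 12 anti-Kcr libraries and 4 of the 29 samples of the series, and all 49916 regions of the deposited ChIP table were used. The other 8 anti-Kcr libraries come from the same siRNAs without crotonate (4 each), and the 1 input library is labelled as DAXX siRNA without crotonate. RNA was sequenced from 16 libraries, 4 for each combination of siRNA and crotonate. The siRNA doses differ between the groups, so target and dose cannot be told apart. The sources give the treatment as 48 h in the sample labels and 18 h in the series description.

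Crotonylation is an acylation of lysine made from crotonyl-CoA, and added crotonate feeds that pool. Acetyltransferases such as p300 add the mark, class I histone deacetylases and sirtuins remove it, and YEATS and double PHD finger proteins bind it. On histones it is known from active promoters and enhancers, and the colon epithelium, exposed to short-chain fatty acids from gut bacteria, carries it. A pan antibody reads crotonylated lysine on any chromatin protein. DAXX is a chaperone that, with ATRX, places the histone variant H3.3 at heterochromatic repeats and telomeres, and it is also a corepressor bound by SUMO-modified proteins.

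The 4 crotonate libraries held 2988458 and 2226835 reads in regions with DAXX siRNA, against 2352293 and 2505514 with non-targeting siRNA. A value called signal below is the reads of a region multiplied by 1 factor per library, which puts all libraries on the scale of the deepest one. The first crotonate library of DAXX siRNA, numbered 2 by the authors, differed most from the libraries numbered 3. Its reads differed from those of DAXX siRNA library 3 by a chi-squared over degrees of freedom of 1.38, where read sampling alone gives about 1 by construction, and the non-targeting libraries 2 and 3 differed by 1.12. Across the siRNAs, DAXX siRNA library 3 and non-targeting library 3 differed by 1.01 (chi-squared p = 0.0107), less than either pair of the same group. DAXX siRNA library 2 differed from non-targeting library 2 by 1.12 and from non-targeting library 3 by 1.45. Values are therefore given for each library, and the labels do not say whether the libraries come from separate cultures. P-values then measure only the spread between these libraries, which may be technical.

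The knockdown was present in the RNA of cells treated in the same way. DAXX had 13.1, 21.2, 18.9 and 24.2 RPM, the reads of a gene scaled to the depth of its library, in the 4 libraries of DAXX siRNA with crotonate, against 102, 101, 102 and 95.2 RPM in the 4 of non-targeting siRNA with crotonate. The groups did not overlap (log2 fold change -2.41, limma adjusted p = 7.40e-10). In such bulk RNA, fewer cells with the transcript and less of it per cell cannot be told apart. Of 8 colon epithelial markers, 7 averaged over 1 RPM in both groups, with KRT8, a keratin, at 2546 RPM in DAXX siRNA cells and 2288 RPM in non-targeting cells. KRT20, a keratin of differentiated colon cells, averaged 0.780 RPM with DAXX siRNA and 0.823 RPM with non-targeting siRNA. Of 8 markers of blood, endothelium and fibroblasts, COL1A1 alone was over 1 RPM, at 22.4 RPM with DAXX siRNA and 19.8 RPM with non-targeting siRNA.

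The starts of genes whose RNA answered to the knockdown are where a change of the mark could be set beside a change of transcript, so 4 of them are shown here, each inside or overlapping an anti-Kcr region. PARM1, a transmembrane mucin-like gene, and CYBRD1, a duodenal ferric reductase, were lower in RNA with DAXX siRNA. GAS6, a secreted protein that activates AXL and MERTK, and CPA4, a secreted carboxypeptidase, were higher. The sequences are the 250 bases before the RefSeq start on GRCh38.p14, 5′ to 3′ on the strand of the gene, with each CG dinucleotide in capitals.
PARM1: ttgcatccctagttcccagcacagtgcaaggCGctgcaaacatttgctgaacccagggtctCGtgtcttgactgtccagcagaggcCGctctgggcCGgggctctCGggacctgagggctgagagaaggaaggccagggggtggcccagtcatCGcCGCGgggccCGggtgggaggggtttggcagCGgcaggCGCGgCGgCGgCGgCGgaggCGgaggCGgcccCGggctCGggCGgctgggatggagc
CYBRD1: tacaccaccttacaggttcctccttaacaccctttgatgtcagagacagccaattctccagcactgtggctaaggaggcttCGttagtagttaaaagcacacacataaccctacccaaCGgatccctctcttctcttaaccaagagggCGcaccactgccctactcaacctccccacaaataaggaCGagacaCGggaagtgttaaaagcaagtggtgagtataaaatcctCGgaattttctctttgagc
GAS6: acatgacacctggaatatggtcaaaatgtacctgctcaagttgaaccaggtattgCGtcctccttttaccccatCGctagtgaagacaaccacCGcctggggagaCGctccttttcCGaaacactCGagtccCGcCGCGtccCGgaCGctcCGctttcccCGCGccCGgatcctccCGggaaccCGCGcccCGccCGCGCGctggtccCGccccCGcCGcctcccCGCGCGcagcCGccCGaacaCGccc
CPA4: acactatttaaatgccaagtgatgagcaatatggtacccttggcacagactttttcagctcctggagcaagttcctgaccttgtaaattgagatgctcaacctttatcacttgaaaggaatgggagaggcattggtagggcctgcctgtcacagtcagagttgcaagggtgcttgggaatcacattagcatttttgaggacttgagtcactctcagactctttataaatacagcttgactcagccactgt
The stretch of PARM1 (chr4:74932866-74933115, plus strand) holds 21 CG dinucleotides and that of GAS6 (chr13:113864077-113864326, minus strand) 31. That of CYBRD1 (chr2:171521983-171522232, plus strand) holds 6 and that of CPA4 (chr7:130292911-130293160, plus strand) holds 0. Of 27305 RefSeq stretches of this length, 93.6% hold at least 1 CG, with a median of 11. CG reads the same on both strands and does not overlap itself. The 4 starts thus run from CG-rich to CG-free, and their anti-Kcr values, given below, did not separate the siRNAs in 3 of the 4.

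Summed over all regions, scaled anti-Kcr signal was nearly equal with and without the knockdown. With 1 factor per library, a change shared by all chromatin could be scaled away, so total crotonylation was not measured. Per region the signal averaged 67.3 and 58.1 with DAXX siRNA and crotonate, against 63.4 and 56.9 with non-targeting siRNA and crotonate. The means over libraries were 62.7 ± 6.45 with DAXX siRNA and 60.2 ± 4.61 with non-targeting siRNA (SD, n = 2 each). The ratio was 1.04, and the exact two-sided permutation p was 0.667, where 2 against 2 libraries cannot give less than 0.333. In both groups library 2 was above library 3, and that gap was wider than the difference between the siRNAs. Relative to the input, which averaged 36.5 per region, the means were 1.72 with DAXX siRNA and 1.65 with non-targeting siRNA. Without crotonate the means were 70.9 ± 5.21 with DAXX siRNA and 70.6 ± 6.63 with non-targeting siRNA (SD, n = 3 each, with libraries 1A and 1B counted as 1 sample, since they differed by little more than read sampling).

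The share of the signal that fell at gene starts, in gene bodies and outside genes did not separate the siRNAs. Regions within 2 kb of a gene start (13743) took 46.5% and 44.4% of the signal with DAXX siRNA, against 45.5% and 44.6% with non-targeting siRNA. Regions inside genes and away from starts (26243) took 40.9% and 42.3% with DAXX siRNA, against 41.6% and 42.1% with non-targeting siRNA. Regions outside genes (9930) took 12.6% and 13.2% with DAXX siRNA, against 12.96% and 13.3% with non-targeting siRNA. In each of the 3 classes the DAXX siRNA libraries lay on either side of at least 1 non-targeting library, and DAXX siRNA library 2 was the highest at starts and the lowest in both other classes. DAXX siRNA library 3 was the lowest at starts and the highest inside genes. The log2 ratios of the mean shares were 0.014, -0.0081 and -0.024, with exact permutation p = 1 for starts. Without DAXX siRNA library 2 all 3 changed sign, to -0.019, 0.017 and 0.011. Without DAXX siRNA library 3 they kept their sign, at 0.047, -0.033 and -0.059. Each of these sets 1 DAXX siRNA library against the mean of both non-targeting libraries. The input held 45.2% of its signal at starts, close to the anti-Kcr libraries. With the input subtracted after scaling to the regions of lowest signal, starts took 49.2% and 31.2% with DAXX siRNA, against 41.8% and 32.4% with non-targeting siRNA. Both libraries numbered 2 were then above both libraries numbered 3, and the siRNAs still interleaved. How strongly each immunoprecipitation enriched over its own input was not tested, since there is 1 input. Without crotonate, starts took 47.0% ± 0.874 with DAXX siRNA and 46.9% ± 0.493 with non-targeting siRNA (SD, n = 3 each).

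**Figure D1:**
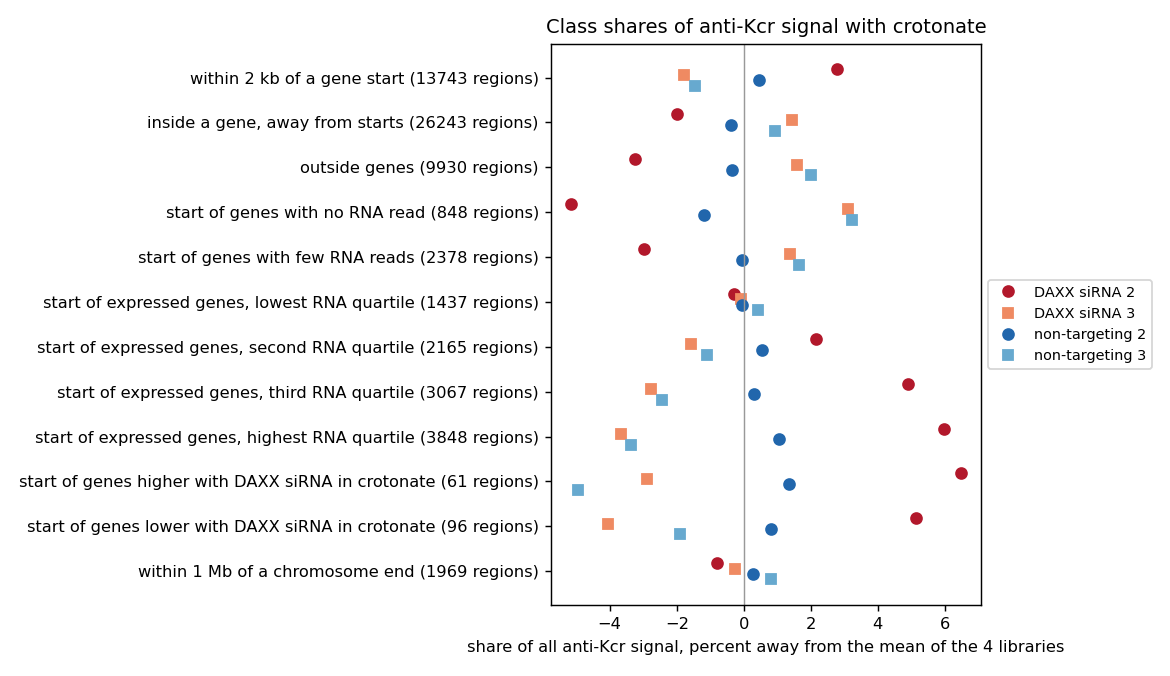
Share of all anti-Kcr signal in 12 classes of regions for the 4 crotonate libraries, as percent away from the mean of the 4 (horizontal axis), with DAXX siRNA libraries in red and orange and non-targeting libraries in blue. In the classes at starts of highly expressed genes DAXX siRNA library 2 lies farthest to the right, while DAXX siRNA library 3 lies beside non-targeting library 3.

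Grouped by the RNA level of the gene, starts gave a similar picture in a graded form, and 5 of 6 classes overlapped between the siRNAs. Starts of the highest RNA quartile (3848 regions) took 16.98% and 15.4% with DAXX siRNA, against 16.2% and 15.5% with non-targeting siRNA. Starts of genes with no RNA read (848 regions) took 1.76% and 1.91% with DAXX siRNA, against 1.84% and 1.92% with non-targeting siRNA. DAXX siRNA library 2 was thus highest at active starts and lowest at silent ones, and DAXX siRNA library 3 lay beside non-targeting library 3 in both classes. Without DAXX siRNA library 2 the log2 ratio turned round, to -0.037 at active and 0.029 at silent starts. Without DAXX siRNA library 3 it was 0.10 at active and -0.091 at silent starts. The class without overlap was the lowest RNA quartile of expressed genes (1437 regions). It took 4.677% and 4.687% with DAXX siRNA, against 4.689% and 4.711% with non-targeting siRNA. Its log2 ratio of -0.0056 was smaller in size than the gap between the non-targeting libraries (0.0069). Over 12308 starts of tested genes, RNA level and anti-Kcr signal per base had a Spearman correlation of 0.19 in DAXX siRNA library 2 and 0.041 in DAXX siRNA library 3. The non-targeting libraries 2 and 3 gave 0.10 and 0.048. These are correlations across genes that share libraries, and they are given as a description.

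Signal at the starts of genes that changed in RNA did not separate the siRNAs either. Starts of genes higher in RNA with DAXX siRNA and crotonate (61 regions) took 0.283% and 0.258% of the signal with DAXX siRNA, against 0.270% and 0.253% with non-targeting siRNA. Starts of genes lower in RNA (96 regions) took 0.352% and 0.321% with DAXX siRNA, against 0.338% and 0.328% with non-targeting siRNA. The libraries of the siRNAs interleaved in both classes, and the log2 ratios were 0.052 and 0.015. Without DAXX siRNA library 2 they were -0.016 and -0.052, and without DAXX siRNA library 3 they were 0.12 and 0.080. With the input subtracted the log2 ratio was 0.20 for RNA-higher and -0.10 for RNA-lower genes, and the libraries still interleaved in both classes.

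Of 82 classes by position, RNA, width, base composition, level, chromosome and gene list, 74 overlapped between the siRNAs, 4 were higher in both DAXX siRNA libraries and 4 were lower in both. The median size of the log2 ratio was 0.015, and the median gap between libraries of the same group was 0.065 with DAXX siRNA and 0.035 with non-targeting siRNA. In 5 classes the ratio was larger than both gaps. Chromosomes 5 and 7 were the higher ones, at log2 ratios of 0.012 and 0.018. Chromosomes 20 and 21 and regions within 1 Mb of a chromosome end were the lower ones. Chromosome 21 (544 regions) took 0.840% and 0.851% with DAXX siRNA, against 0.859% and 0.879% with non-targeting siRNA, a log2 ratio of -0.039, and without crotonate the ratio was 0.027. The far end of each chromosome was taken as the last gene or region given for it, not from its full length. Regions within 1 Mb of a chromosome end (1969), the class nearest to telomeres where DAXX and ATRX place H3.3, took 4.63% and 4.66% with DAXX siRNA, against 4.68% and 4.71% with non-targeting siRNA. Their log2 ratio was -0.015, the exact permutation p of 0.333 is the smallest that 4 libraries can give, and without crotonate the ratio was -0.00043. It was between -0.019 and -0.012 with each of the 4 libraries left out in turn, and -0.089 with the input subtracted. As a class sum with each library centred on its median region, the log2 ratio was 0.0022. Such a sum, unlike a share, carries the scale of the library. It gave 0.033 at starts, 0.0091 inside genes and -0.0067 outside genes. The median region of the class was higher with DAXX siRNA, at a log2 difference of 0.025, beside 0.052 over all regions. As 1 of 82 classes it has no adjusted test. Repeats were not analysed here.

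No region was called. Limma fitted to all 49916 regions and all 12 anti-Kcr libraries gave 0 higher (0%) and 0 lower (0%) at an adjusted p under 0.05 for DAXX siRNA against non-targeting siRNA with crotonate. The smallest adjusted p was 0.647. An unadjusted p under 0.05 was reached by 1909 regions (3.82%), 1289 higher (2.58%) and 620 lower (1.24%). That split was 1378 higher and 1062 lower with each library centred on its median region, and 1131 higher and 1122 lower in limma-voom on recovered reads, which also called 0 regions. Leaving out DAXX siRNA library 2 gave 7 lower calls, and leaving out non-targeting library 2 or 3 gave 5 higher calls each. These 17 regions had mean reads between 7.25 and 25.5 per library, below the median of 26.5 over all regions. Both DAXX siRNA libraries were above both non-targeting libraries in 8636 regions (17.3%) and below both in 5874 (11.8%). Of the 6 arrangements of 4 libraries, 1 gives the first order and 1 the second. The median log2 difference was 0.052 over all regions, and it was 0.14 for DAXX siRNA library 2 alone and -0.030 for library 3 alone, each set against the non-targeting mean.

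How large a change could have gone unseen depends on the reads of a region. In the quartile of regions with the fewest reads (median 9.5 per library) the 95% interval of the log2 difference reached a median of 1.01 to either side, and in the quartile with the most (median 92 reads) it was 0.41. The spread of the differences narrowed in the same way, with an SD of 0.55 in the lowest quartile and 0.16 in the highest. Differences of 1 or more in size numbered 875, 68, 3 and 0 regions from the lowest to the highest quartile. The intervals are not adjusted over regions, so differences beyond them could also go uncalled.

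**Figure D2:**
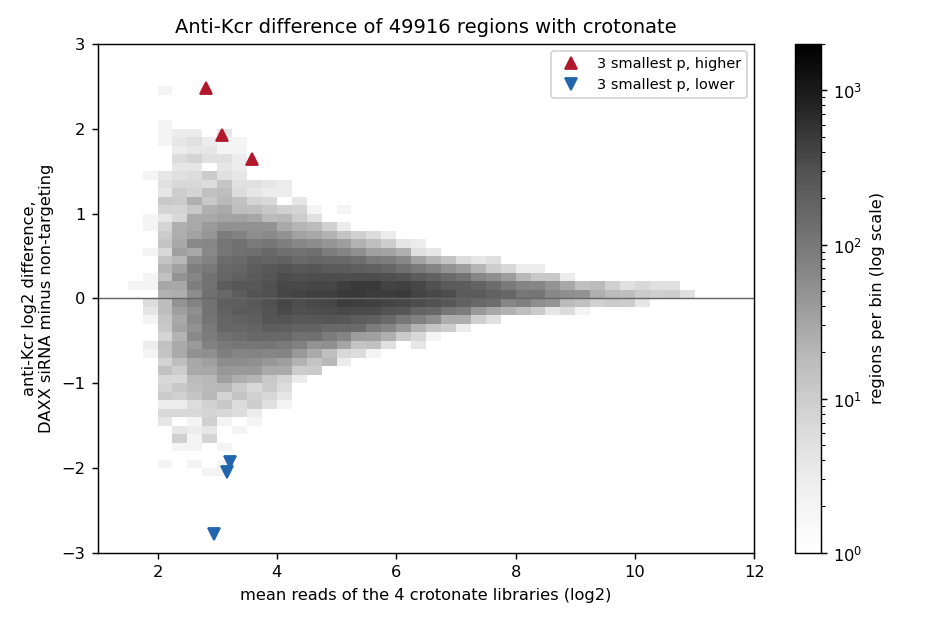
Log2 difference of anti-Kcr signal, DAXX siRNA minus non-targeting with crotonate (vertical axis), against mean reads of the 4 libraries on a log2 scale (horizontal axis) for 49916 regions binned in grey, with the 3 regions of smallest p each way as triangles. The cloud narrows with reads around a median of 0.052, and the 6 marked regions lie at its upper and lower edges among regions of few reads.

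The regions with the smallest p-values held few reads. The highest was on chr2:54165751-54166200 (GRCh38) inside ACYP2, an acylphosphatase gene, with 13 and 10 reads with DAXX siRNA, against 1 and 4 with non-targeting siRNA (log2 difference 2.48, limma adjusted p = 0.999). The region at chr4:98994751-98995350 lies at the start of METAP1, a methionine aminopeptidase, and held 15 and 12 reads with DAXX siRNA, against 4 and 3 with non-targeting siRNA (1.92). The region at chr9:92882701-92883600 in the pseudogene ANKRD19P held 18 and 18 reads with DAXX siRNA, against 8 and 4 with non-targeting siRNA (1.64). All 3 were higher in both DAXX siRNA libraries. On the lower side, chr14:103258201-103258650 lies outside genes and held 2 and 2 reads with DAXX siRNA, against 12 and 15 with non-targeting siRNA (-2.78, limma adjusted p = 0.647). The region at chrX:54043801-54044400 lies in PHF8, a histone demethylase, and held 6 and 2 reads with DAXX siRNA, against 14 and 14 with non-targeting siRNA (-2.04). The region at chr12:56707201-56707800 lies outside genes and held 3 and 5 reads with DAXX siRNA, against 13 and 16 with non-targeting siRNA (-1.93). None of the 6 was called in the main fit or in any alternative, and without crotonate their log2 differences were between -0.44 and 0.64.

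The DAXX start itself, where the siRNA acts on transcript and not on the locus, did not separate the groups. Its region (chr6:33317551-33324150, shared with the start of ZBTB22) had a signal of 157 and 113 with DAXX siRNA, against 157 and 119 with non-targeting siRNA. Library 2 was high and library 3 low in both groups, and the log2 difference was -0.036 (95% interval -0.43 to 0.36). DAXX RNA in the same conditions differed by -2.41 on the log2 scale.

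Genes that were lower in RNA with DAXX siRNA had no common direction of anti-Kcr signal at their starts. PARM1, at 16.2 ± 1.96 RPM with DAXX siRNA and 41.3 ± 0.522 RPM with non-targeting siRNA (SD, n = 4 each), had a signal of 30.3 and 26.1 with DAXX siRNA, against 21.5 and 19.3 with non-targeting siRNA. The groups did not overlap, and the mark was the higher one where RNA was lower, though within its error (log2 difference 0.46, 95% interval -0.19 to 1.12). CYBRD1, at 12.5 ± 1.62 RPM with DAXX siRNA and 26.0 ± 1.05 RPM with non-targeting siRNA, had 50.6 and 37.8 with DAXX siRNA, against 39.0 and 48.8 with non-targeting siRNA, and the libraries interleaved (0.0028). PIM1, a serine/threonine kinase, had 76.4 and 57.3 with DAXX siRNA, against 78.1 and 60.1 with non-targeting siRNA, and each pair of same-numbered libraries was nearly equal. TOR1B, a torsin ATPase of the nuclear envelope, had 91.0 and 86.0 with DAXX siRNA, against 102 and 102 with non-targeting siRNA, lower in both DAXX siRNA libraries (-0.21, 95% interval -0.63 to 0.22). UHRF1, which guides maintenance DNA methylation, had 38.2 and 36.5 with DAXX siRNA, against 41.7 and 43.1 with non-targeting siRNA (-0.18, 95% interval -0.71 to 0.34). Its RNA averaged 142 ± 17.5 RPM with DAXX siRNA and 219 ± 15.4 RPM with non-targeting siRNA.

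HMGA2, GAS6, CPA4 and MDGA1, which were higher in RNA, had differences of the mark within their error. HMGA2, an AT-hook protein of chromatin, averaged 319 ± 38.5 RPM with DAXX siRNA and 173 ± 10.6 RPM with non-targeting siRNA. Its start had a signal of 240 and 142 with DAXX siRNA, against 214 and 150 with non-targeting siRNA, so that the libraries of 1 group spread more than the groups differed (0.046). GAS6, at 148 ± 22.5 RPM with DAXX siRNA and 80.5 ± 4.27 RPM with non-targeting siRNA, had 94.4 and 79.5 with DAXX siRNA, against 83.5 and 87.3 with non-targeting siRNA (0.021). The RNA of GAS6 overlaps an antisense gene, and the strand counted is not given in the sources used here. CPA4, at 49.6 ± 7.09 RPM with DAXX siRNA and 25.0 ± 3.12 RPM with non-targeting siRNA, had 229 and 156 with DAXX siRNA, against 179 and 169 with non-targeting siRNA (0.12), with DAXX siRNA library 2 the highest and library 3 the lowest. MDGA1, a membrane protein of the neuroligin system, had 120 and 121 with DAXX siRNA, against 94.2 and 111 with non-targeting siRNA, higher in both DAXX siRNA libraries (0.24, 95% interval -0.18 to 0.65).

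**Figure D3:**
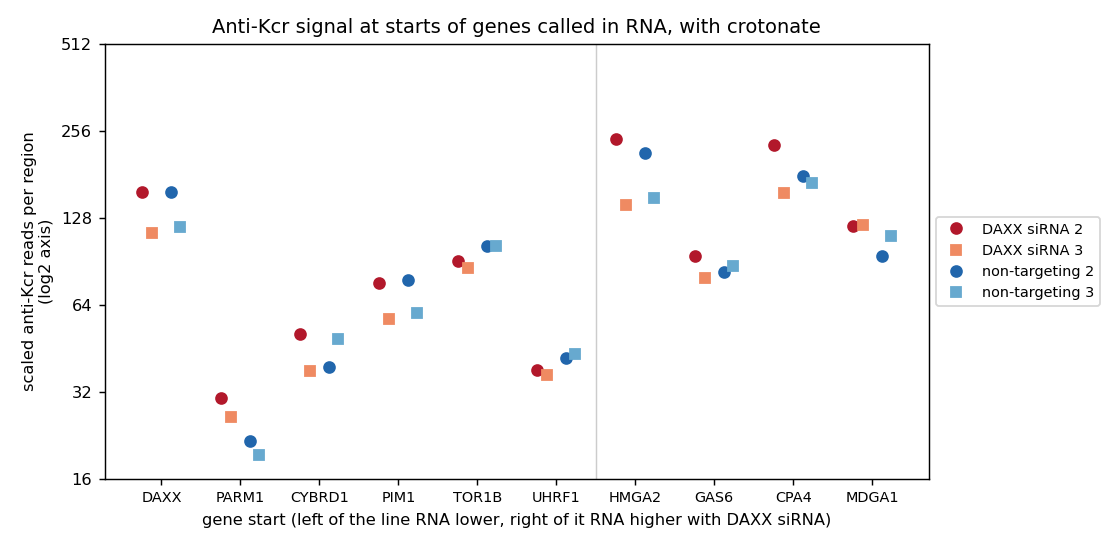
Anti-Kcr signal (scaled reads per region, log2 axis) at the starts of 10 genes called in RNA, with DAXX siRNA libraries in red and orange left of non-targeting libraries in blue. PARM1 and MDGA1 are higher in both DAXX siRNA libraries, TOR1B and UHRF1 are lower in both, and the other 6 interleave.

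Over all genes called in RNA, the mark did not follow the direction of the transcript. With crotonate, DAXX siRNA raised the RNA of 70 genes (0.389% of 17973 tested) and lowered that of 120 (0.668%), by limma with Benjamini-Hochberg adjustment. Leaving out any 1 of the 4 non-targeting RNA libraries left 25 to 37 higher and 65 to 72 lower, and leaving out DAXX siRNA RNA library 1 or 2 left 35 or 34 higher. Of the 57 RNA-higher genes with a region at the start, 9 (15.8%) had both DAXX siRNA libraries above both non-targeting ones and 1 (1.75%) below. Of the 89 RNA-lower genes with a region, 17 (19.1%) were above and 5 (5.62%) below. Over all 13743 start regions these shares were 16.6% and 8.08%. The median log2 difference of the mark was 0.10 for RNA-higher and 0.078 for RNA-lower genes, beside 0.073 over all start regions, while the RNA medians were 0.41 and -0.51. Across 12308 starts the RNA and mark differences had a Pearson correlation of 0.032 and a Spearman correlation of 0.052, given as a description. Chosen after their values were seen, DUBR, a long non-coding RNA, had the highest difference of the mark among the called genes (1.07, with 25 and 22 reads with DAXX siRNA, against 15 and 8 with non-targeting siRNA) and lower RNA. EPB41L4A, of the band 4.1 family, had the lowest (-0.78, with 15 and 13 reads with DAXX siRNA, against 23 and 24 with non-targeting siRNA) and lower RNA too.

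**Figure D4:**
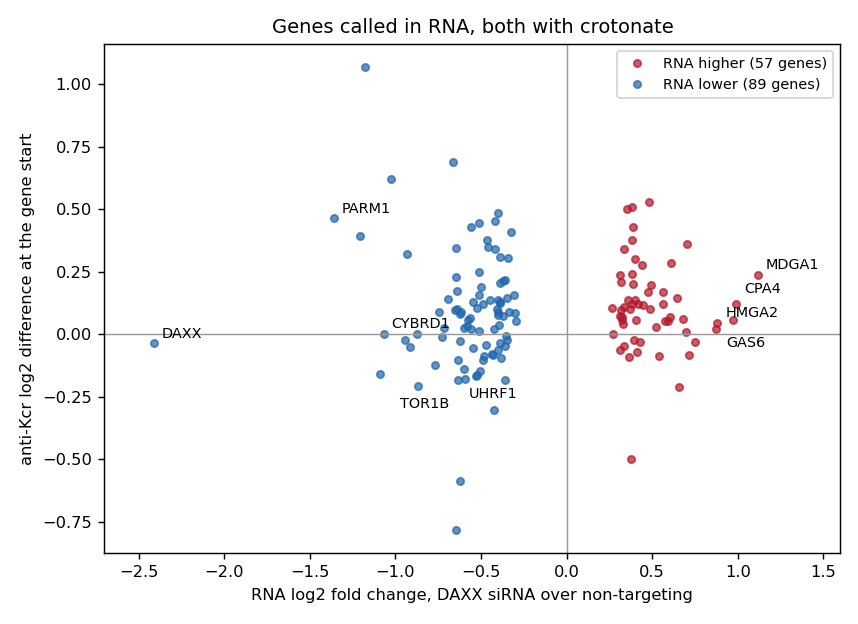
Anti-Kcr log2 difference at the start (vertical axis) against RNA log2 fold change (horizontal axis), both DAXX siRNA over non-targeting with crotonate, for the 57 RNA-higher and 89 RNA-lower genes with a region at the start. The medians of the mark are 0.10 and 0.078, and DAXX at an RNA change of -2.41 sits at -0.036.

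Among 28 gene lists, chosen for chromatin, metabolism and the colon, no gene start was called. Their members' shares of non-overlapping starts are read against the 16.6% higher and 8.08% lower over all start regions. Genes named from the lists below have the smallest p each way in their list. Their 95% intervals are not adjusted for that choice, so an interval that leaves out 0 is no call. Of 22 H3.3 chaperone and DAXX partner genes with a region, 4 were higher in both DAXX siRNA libraries and 2 lower in both, with a median log2 difference of 0.068. UBN1, a subunit of the HIRA complex that also places H3.3, had 88.7 and 76.9 with DAXX siRNA, against 61.9 and 52.2 with non-targeting siRNA (0.54, 95% interval 0.068 to 1.01). ADNP, a partner of heterochromatin protein 1, had 109 and 75.6 with DAXX siRNA, against 121 and 122 with non-targeting siRNA (-0.42, 95% interval -0.82 to -0.025). Neither passed adjustment over all regions (limma adjusted p = 0.999 for both).

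Of 20 writers, erasers and readers of crotonylation, 3 were higher and 2 lower without overlap, with a median of 0.084. SIRT1, a deacylase, had 50.6 and 41.7 with DAXX siRNA, against 26.9 and 30.6 with non-targeting siRNA (0.68, 95% interval 0.12 to 1.23). KAT5, an acetyltransferase, had 140 and 89.9 with DAXX siRNA, against 157 and 128 with non-targeting siRNA, with an overlap between the groups (-0.34). Their RNA differed by 0.074 and -0.023 on the log2 scale, and neither was called in RNA.

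Replication-dependent histone genes had the highest median of the lists when counted by gene start, and its sign differed between the DAXX siRNA libraries. Of 39 starts, 10 (25.6%) were higher in both DAXX siRNA libraries and 0 lower, with a median log2 difference of 0.21. Set alone against the non-targeting mean, DAXX siRNA library 2 gave a median of 0.44 and library 3 gave -0.16, so the sign depends on the library. Histone starts share regions, and counted by region 6 of 32 (18.8%) were higher and 1 was lower, with a median of 0.098, below that of metallothionein genes (0.16) and HDAC inhibitor response genes (0.14) counted in the same way. HIST1H2BK, an H2B gene, had 50.6 and 32.6 with DAXX siRNA, against 25.6 and 21.5 with non-targeting siRNA (0.79, 95% interval 0.23 to 1.35). Its region also covers the start of HIST1H2AH. Cytosolic ribosomal protein genes gave 11 higher and 0 lower of 72, with medians of 0.33 in DAXX siRNA library 2 and -0.10 in library 3. RPS24, of the small subunit, had 62.9 and 48.2 with DAXX siRNA, against 36.3 and 35.1 with non-targeting siRNA (0.62).

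The same split by library ran through nearly all lists. Each DAXX siRNA library was set against the mean of both non-targeting libraries. These medians therefore cannot tell a split between numbers 2 and 3 that both siRNAs share from one of DAXX siRNA alone. Summed shares are given per library, and the non-targeting libraries 2 and 3 went either way by list. At histone genes they took 0.058% and 0.049%, in the order of the DAXX siRNA libraries (0.064% and 0.050%). At crotonylation writers, erasers and readers they took 0.068% and 0.075%, against 0.075% and 0.068% with DAXX siRNA. Whether the split is shared was not tested. Of 27 lists with at least 5 starts that hold a region, the median was above 0 in 27 with DAXX siRNA library 2 and in 4 with DAXX siRNA library 3. Those 4 were the HOX cluster, imprinted, interferon-stimulated and epithelial to mesenchymal transition genes. The range of list medians was 0.061 to 0.44 in library 2 and -0.21 to 0.053 in library 3, beside 0.14 and -0.030 over all regions. With each library centred on its median region, the median was above 0 in 26 of the 27 lists with library 2 and in 7 with library 3. HOX genes, the patterning genes, had 8 of 30 starts higher and 0 lower, with medians of 0.19 in DAXX siRNA library 2 and 0.053 in library 3. Their summed share was higher in both DAXX siRNA libraries, at 0.154% and 0.158% with DAXX siRNA, against 0.152% and 0.154% with non-targeting siRNA, but by less than the gap between the DAXX siRNA libraries. HOXA4 had 51.7 and 59.9 with DAXX siRNA, against 43.1 and 47.6 with non-targeting siRNA (0.30). Several HOX starts share 1 region, as HOXA3, HOXA6 and HOXA7 do, so these starts are not separate measurements.

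**Figure D5:**
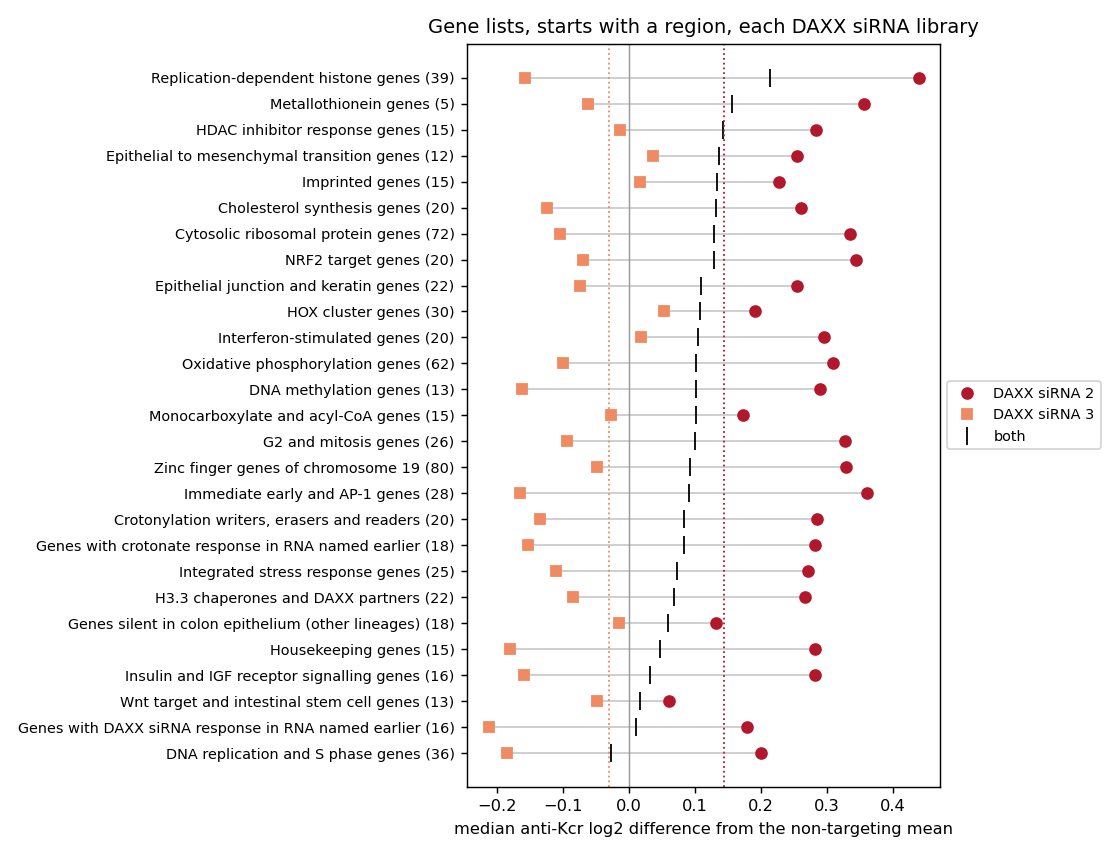
Median log2 difference of anti-Kcr signal at the starts of 27 gene lists (number of starts with a region in brackets), for each DAXX siRNA library against the mean of the non-targeting libraries, and for both together (black bar). Dotted lines give the medians over all regions, 0.14 for library 2 and -0.030 for library 3, and library 2 lies right of library 3 in each list on this scale (in 24 of 27 with each library centred on its median region).

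Most starts of the DNA replication, G2 and mitosis, oxidative phosphorylation and cholesterol synthesis lists overlapped between the siRNAs. Of 36 DNA replication genes, 4 were higher and 3 lower, with a median of -0.027, the lowest among the 27 lists. Of 26 G2 and mitosis genes, 3 were higher and 3 lower. Among them PTTG1, the securin of mitosis, had 19.1 and 6.52 with DAXX siRNA, against 22.9 and 28.3 with non-targeting siRNA (-1.19, 95% interval -2.02 to -0.36), in a region shared with SLU7. Of 62 oxidative phosphorylation genes, 11 were higher and 2 lower. Among them NDUFB11, a subunit of respiratory complex I, had 16.9 and 7.82 with DAXX siRNA, against 5.38 and 2.27 with non-targeting siRNA (1.72, 95% interval 0.58 to 2.85). That was the largest difference among the starts of the lists, and it came from few reads. Of 20 cholesterol synthesis genes 5 (25.0%) were higher and 2 (10.0%) lower. DHCR7, the last reductase of the pathway, had 18.0 and 10.4 with DAXX siRNA, against 26.9 and 20.4 with non-targeting siRNA (-0.78). Its RNA was not called.

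Colon and differentiation lists were mixed as well. CD44, a Wnt target and adhesion receptor, had 148 and 119 with DAXX siRNA, against 99.6 and 80.5 with non-targeting siRNA (0.57, 95% interval 0.17 to 0.97). EPHB2, another Wnt target of the crypt, had 55.0 and 57.3 with DAXX siRNA, against 80.8 and 74.8 with non-targeting siRNA (-0.47, 95% interval -0.91 to -0.026). Each was separated between the groups, in opposite directions, within a list whose median was 0.017. They were picked for the smallest p each way in that list, and neither was called. TWIST1, a mesenchymal transcription factor, had 10.1 and 10.4 with DAXX siRNA, against 18.8 and 22.7 with non-targeting siRNA (-1.01), and OCLN, a tight junction protein, had 65.2 and 62.6 with DAXX siRNA, against 49.8 and 42.0 with non-targeting siRNA (0.48). Housekeeping genes had 1 of 15 higher and 1 lower, with a median of 0.048. Genes silent in colon epithelium had 6 of 18 higher and 1 lower, with a median of 0.060. The sign of 5 small list medians depended on the scaling. Those of the Wnt list and of genes chosen earlier for their RNA response to DAXX siRNA were below 0 with each library centred on its median region, with quantile scaling and in limma-voom. That of insulin signalling was below 0 in the first and second of these, and those of housekeeping genes (-0.011) and of genes silent in colon epithelium (-0.0019) with quantile scaling alone.

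The difference with crotonate was not told apart from that without it. The interaction, the DAXX siRNA difference with crotonate minus that without, gave 0 higher and 0 lower regions by limma, with 1697 at an unadjusted p under 0.05 (3.4%), and 0 in limma-voom. Leaving out DAXX siRNA library 2 gave 1 lower call and leaving out non-targeting library 2 gave 1 higher call. Without crotonate, DAXX siRNA against non-targeting siRNA also gave 0 and 0, with 1504 at an unadjusted p under 0.05 (3.01%). The differences with and without crotonate share no library, and across 49916 regions they had a Pearson correlation of 0.013. Among the 24958 regions above the median level it was 0.054. Both are given as descriptions over regions of the same libraries.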

How the data were processed

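The deposited ChIP and RNA tables were used. Per the submitters' processing notes, ChIP reads were trimmed with Trim Galore 0.6.5 and cutadapt 2.3, aligned with Bowtie2 and given regions with MACS, while the RNA notes name Trim Galore 0.6.2 and HISAT2 2.2.1, all on GRCh38. Both tables hold log2 values made by the authors: log2 RPM per gene, and log2 reads per region after 1 factor per library, with 0 reads entered as 0.9 read. The input was not subtracted by the authors, and how regions were combined is not given in the sources used here. Undoing the factors gave whole reads for 100% of values (tolerance 0.01 read, widened with the count). Depth is given as those reads.

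Limma 3.58.1 in R 4.3.3 took the deposited log2 values, with a term for each group and a trended prior variance, and p-values were adjusted by Benjamini-Hochberg over all regions, or over genes with at least 0.25 RPM in at least 4 libraries. The fit was also run on simulated reads, drawn around a common mean for all libraries. Changes were placed only in regions or genes at or above the median level. That run does not cover changes in regions of few reads, or the differences between same-group libraries seen here. Class shares are unlogged signal summed over a class, as percent of all signal (Python 3.11.15), with two-sided exact permutation tests over libraries. Errors are SD.

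The comparison, members, gene lists and classes were chosen with earlier results of these data known. Genes named are DAXX, up to 6 with the smallest p from the lists of genes named earlier for an RNA response, and the 1 with the smallest p each way from other lists with at least 5 starts. Others, among them HMGA2, GAS6, CYBRD1 and PIM1, come from the list named earlier for DAXX siRNA, taken as a group, or were chosen after their values were seen. Some genes that the rule picks are not reported here. For regions, the 3 with the smallest p each way are named where none was called. The classes by promoter base composition, width and signal over input, the medians for each library and scaling, the comparison of libraries across siRNAs and the RNA alternatives were added after seeing the data. Promoter sequences are from RefSeq; 8236 of 12308 starts matched by symbol. Alternatives tried are given with the limits.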

Additional observations from a re-analysis of the deposited data

Results flagged for a closer look

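DAXX RNA in non-targeting siRNA with crotonate, library 4, was 95.2 RPM, below the other 3 libraries of its group at 101 to 102 RPM. Its gap to the nearest library was 0.884 of the range of the group, past Dixon's value for 4 samples. Chance flags about 1 in 20 groups in this way, and the library stayed far above the DAXX siRNA libraries.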

How the results depend on the processing

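With limma on all regions, 0 were called higher and 0 lower in the 4 crotonate libraries alone, with 1A and 1B as 1 sample, under median centring, quantile scaling and limma-voom, and among regions at or above the median level. With 1 crotonate library left out, counts were 0 to 5 higher and 0 to 7 lower, and for the interaction 0 to 1 higher and 0 to 1 lower; the lone library of a group is then assumed to vary like the other groups. No region or gene start named was called in any of these fits. Log2 ratios of shares kept their side and stayed within 1 SD of libraries with start windows of 1 kb and 5 kb and without the 1% widest regions. The median region of the class, which carries the scale of the library, gave 0.073 at starts, 0.046 in genes and 0.028 outside genes. Input subtraction gave 0.12 at starts, -0.053 in genes, -0.13 outside genes, 0.20 at starts of RNA-higher genes and -0.10 at starts of RNA-lower genes. The cause was not tested. Chromosome ends, as a class sum with each library centred on its median region, gave 0.0022. Such a sum carries the scale of the library and is not a share.

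The labels do not say whether the replicate numbers pair the samples, and a batch shared by number was not excluded. Deviations of same-numbered libraries had correlations of -0.012 to 0.089, mostly above 0. Between the siRNAs with crotonate the correlation was 0.055. The replicate block lowered the median standard error of the log2 difference from 0.299 to 0.283. With it limma gave 0 higher and 0 lower regions, with 3022 at an unadjusted p under 0.05, against 1909 without it. The block gave a log2 ratio of 0.0140 at starts. For RNA it gave 98 higher and 155 lower. With 2 libraries a side, 2-fold changes in regions of few reads lie inside the intervals given, so they were not detectable at this depth. Those intervals are not adjusted, and larger differences could also go uncalled. The region outside genes on chromosome 14, at -2.78, was not called (limma adjusted p = 0.647).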
